A study of Homo sapiens with 14 samples.

Results

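Protein-coding promoters were examined for DNA:RNA hybrid signal in Nalm-6 cells, a line grown from a human B cell leukemia. A promoter was taken as the window reaching 1000 bases to each side of the start site, the 5′ end of the gene record in GENCODE 44 (GRCh38), for every protein-coding gene on chromosomes 1 to 22 and X. This gave 19970 windows, set beside 1454657 consecutive windows of the same length over the whole of these chromosomes. A promoter counted as having a peak in a library when a deposited peak of that library shared at least 1 base with its window. A peak of any of the 8 libraries was found in 3964 promoters (19.8%), and 3459 (17.3%) had a peak in at least 1 of the 4 untreated libraries. The other 16006 had none.

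The libraries came from DNA-RNA immunoprecipitation and sequencing (DRIP-seq) with the S9.6 antibody, on isogenic Nalm-6 cells carrying SF3B1-K700K (WT) or SF3B1-K700E (MT). The DNA was cut with HindIII, EcoRI, BsrGI, XbaI and SspI, and it was either left untreated or digested with RNase H (RNH1) before the immunoprecipitation. There were 2 libraries for each genotype and treatment, which the labels number as replicates without saying whether they came from separate cultures, so p-values measure the spread between these libraries, which may be technical. RNA-Seq of HEK293T cells in the same study was not used here. Peaks are no measure of expression, so the B cell label could not be checked against marker genes.

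An R-loop forms when nascent RNA pairs with the template strand behind RNA polymerase II and leaves the other DNA strand unpaired. RNase H1 degrades the RNA of such hybrids, so signal that persists after digestion is generally read as background of the antibody or of the library. Promoters with CpG islands, in which G outweighs C on the coding strand downstream of the start site, are a well-known site of R-loops. SF3B1 is the core subunit of the U2 small nuclear ribonucleoprotein that recognizes the intron branch site, and K700E is its mutational hotspot in myelodysplastic syndromes and chronic lymphocytic leukemia.

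The 201 bases around the highest summit are printed for 7 promoters, to show what sequence lies under strong promoter peaks of each pattern. They were taken from the named promoters with a summit inside the window and away from exons, and not all of those are shown. They are on the coding strand, 5′ to 3′, from GRCh38, in lower case with CpG dinucleotides in capitals. None overlaps an annotated exon. ZNF471 (chr19:56507188-56507388, + strand, summit at −562 from the start site), coding for a zinc finger protein, had bona fide peaks in both MT libraries and no untreated peak in WT.
ZNF471: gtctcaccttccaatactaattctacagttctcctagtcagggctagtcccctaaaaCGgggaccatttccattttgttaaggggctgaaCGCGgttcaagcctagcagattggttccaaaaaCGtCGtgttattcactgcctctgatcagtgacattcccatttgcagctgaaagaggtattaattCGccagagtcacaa
RBM41 (chrX:107119062-107119262, − strand, summit at −339) and NFKBIA (chr14:35405466-35405666, − strand, summit at −817), the gene of the NF-κB inhibitor IκBα, had bona fide peaks in both WT libraries and no untreated peak in MT. No annotated gene spans these positions.
RBM41: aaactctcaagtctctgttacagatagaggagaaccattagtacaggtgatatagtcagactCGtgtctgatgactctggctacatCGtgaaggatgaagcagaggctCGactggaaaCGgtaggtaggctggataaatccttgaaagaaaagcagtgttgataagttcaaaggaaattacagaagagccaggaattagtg
NFKBIA: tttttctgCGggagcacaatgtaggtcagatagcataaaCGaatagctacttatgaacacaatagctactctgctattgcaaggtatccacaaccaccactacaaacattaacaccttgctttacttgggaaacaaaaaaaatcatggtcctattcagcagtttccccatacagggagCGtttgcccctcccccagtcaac
ARFGAP3 (chr22:42858864-42859064, − strand, summit at −858, within an intron of PACSIN2) and UBE2T (chr1:202340949-202341149, − strand, 935 bases downstream, within its own intron) had bona fide peaks in all 4 untreated libraries.
ARFGAP3: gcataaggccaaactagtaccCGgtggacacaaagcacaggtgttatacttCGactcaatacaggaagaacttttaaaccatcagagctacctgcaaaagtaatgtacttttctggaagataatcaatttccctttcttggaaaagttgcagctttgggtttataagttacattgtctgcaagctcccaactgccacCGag
UBE2T: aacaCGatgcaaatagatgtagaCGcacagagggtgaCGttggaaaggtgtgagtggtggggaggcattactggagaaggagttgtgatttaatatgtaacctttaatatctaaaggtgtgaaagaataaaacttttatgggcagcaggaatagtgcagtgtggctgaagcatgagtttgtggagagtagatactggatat
RNF133 (chr7:122699990-122700190, − strand, summit at −973, within an intron of CADPS2) and OR3A1 (chr17:3297441-3297641, − strand, 819 bases downstream, within introns of OR3A1 and OR3A2) had a peak in all 8 libraries, those treated with RNH1 included.
RNF133: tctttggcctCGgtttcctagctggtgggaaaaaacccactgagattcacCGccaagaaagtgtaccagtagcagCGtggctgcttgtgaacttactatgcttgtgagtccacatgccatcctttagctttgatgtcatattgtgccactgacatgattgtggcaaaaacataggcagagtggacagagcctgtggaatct
OR3A1: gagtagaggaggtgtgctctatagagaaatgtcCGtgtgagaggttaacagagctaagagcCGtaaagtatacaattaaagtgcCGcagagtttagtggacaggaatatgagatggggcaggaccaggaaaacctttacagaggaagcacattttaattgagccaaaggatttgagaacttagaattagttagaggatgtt
These 7 stretches were 41.8% to 47.8% GC and held 3 to 6 CpG each, and none was as GC-rich as the median promoter window (55.02%).

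The first comparison asked how many promoters carried DRIP signal in SF3B1-WT and -MT cells. Untreated peaks were found in 872 promoters (4.37%) and 981 promoters (4.91%) in the WT libraries, and in 2271 (11.4%) and 2407 (12.1%) in the MT libraries. WT libraries averaged 4.64% ± 0.386 (SD, n = 2) and MT libraries 11.7% ± 0.482 (SD, n = 2), a difference of 7.07 percentage points (pooled SD 0.436). The genotypes did not overlap, and the two-sided exact permutation test gave p = 0.333, the smallest that 2 libraries against 2 allow, so no comparison of libraries by this test can reach 0.05. The untreated MT lists were also longer over the whole genome, with 253744 and 295970 peaks against 123582 and 130928 in WT. With every untreated list cut to the 123582 peaks with the smallest p, WT promoter shares were 4.37% and 4.54%, MT promoter shares 5.45% and 5.17%, and the difference shrank to 0.856 percentage points (pooled SD 0.167). The lists hold no read totals. The local background recovered from the peak statistics had a median of 3.60 and 3.73 reads in untreated WT and 4.05 and 4.94 in untreated MT libraries, and the part of depth in the longer MT lists was not tested.

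**Figure D1:**
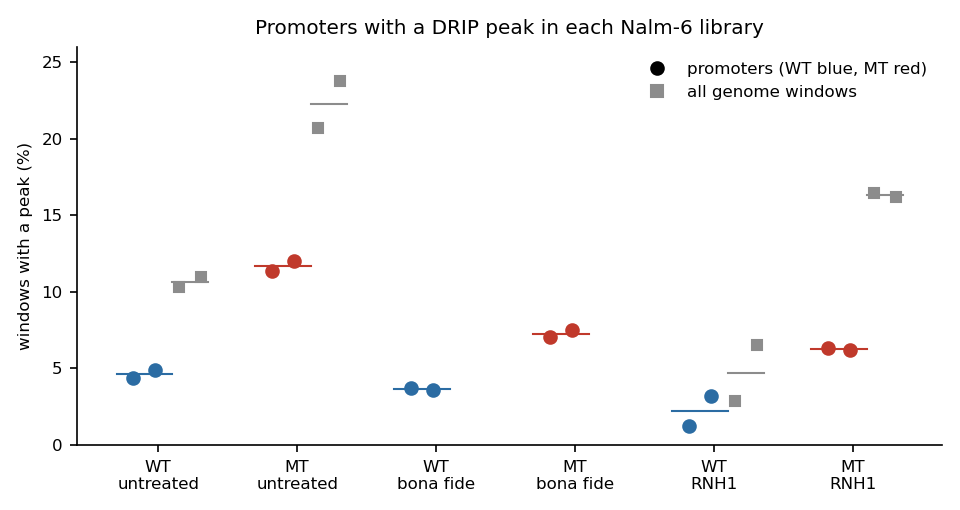
Percent of windows with a peak (y axis) in each library, by genotype and by untreated peaks, bona fide peaks and peaks of RNH1-treated DNA (x axis). Circles are promoters (WT blue, MT red), grey squares all genome windows, horizontal lines means of 2 libraries. Untreated promoters sit at 4.37% and 4.91% in WT and at 11.4% and 12.1% in MT, below the genome windows of the same libraries.

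Promoters had peaks less often than the genome at large in every library. Untreated peaks lay in 10.3% and 11.0% of all windows in WT and in 20.7% and 23.8% in MT. The log2 ratio of the promoter share to the window share was −1.24 and −1.16 in WT against −0.86 and −0.98 in MT, which puts MT promoters nearer to their genome level by 0.28 (pooled SD 0.072; two-sided exact permutation test, p = 0.333). Base composition moved with this deficit, since the median GC content was 55.02% in promoters and 39.7% in all windows. When genome windows were weighted to the GC content of promoters in bins of 5 percentage points, the ratio turned positive in all 4 untreated libraries, with 0.14 and 0.08 in WT and 0.37 and 0.32 in MT. The genotypes then differed by 0.23 (pooled SD 0.037; p = 0.333, exact permutation test), and by 0.28 (pooled SD 0.021) with the lists also cut to 1 length. Relative to DNA of like GC content, promoters thus had peaks somewhat more often than other windows, and more so in MT.

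The classes of GC content show where this lay. Of 4271 promoters at 50% to 55% GC, 4.57% and 5.36% had an untreated peak in WT and 12.04% and 12.9% in MT, against mean window shares of 3.45% and 7.52%. Of 4496 promoters at 55% to 60% GC, 2.67% and 3.51% had one in WT and 8.52% and 8.74% in MT, where the window means were 2.63% and 3.74%. In the 3316 promoters at 60% to 65% GC WT had 1.81% and 2.02% and MT 5.46% and 5.40%, with window means of 2.03% and 2.24%. MT promoters of 55% to 65% GC thus held peaks 2.31 and 2.43 times as often as windows of the same class, and WT promoters 1.18 and 0.955 times as often. From 35% to 50% GC, promoters and windows differed by at most 1.14-fold in either genotype. At the extremes, promoters under 35% GC had peaks less often than windows (0.653 times in WT, 0.865 times in MT), and the 2214 promoters of 65% GC or more rarely had one, at 1.40% and 1.36% in WT against 2.44% and 2.30% in MT. With lists of equal length, the MT mean was above the WT mean in each class from 35% to 65% GC, by the most at 45% to 50% (8.11% against 5.18%) and by little at 60% to 65% (1.90% against 1.82%). It was below the WT mean under 35% (8.46% against 11.2%) and at 65% or more (0.745% against 1.22%).

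**Figure D2:**
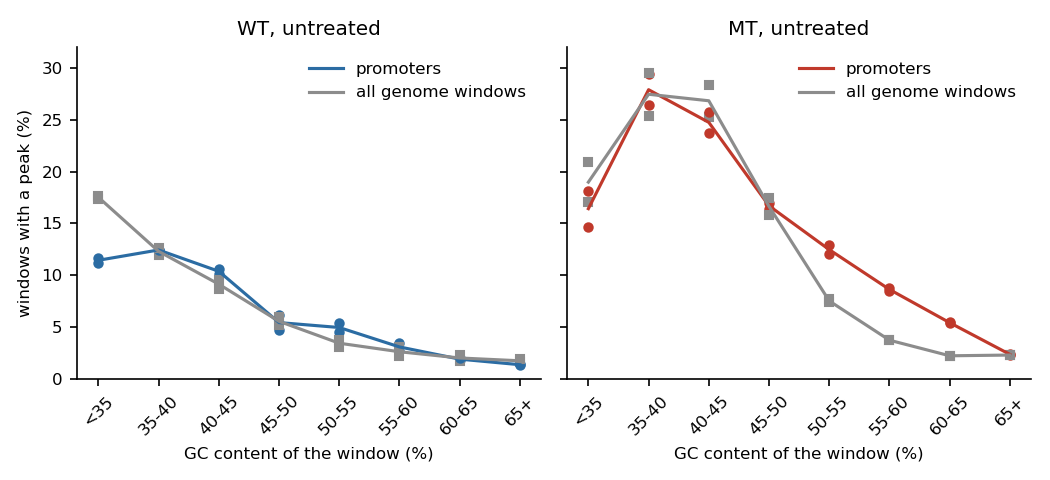
Percent of windows with an untreated peak (y axis) by GC content of the window (x axis), for WT (left) and MT (right). Circles are promoters and squares all genome windows, 1 point a library, with lines through the means. In MT the promoter line stays above the window line from 50% to 65% GC (8.63% against 3.74% at 55% to 60%), where WT has 3.09% against 2.63%.

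CpG content, the density of CpG relative to what the C and G of the window would give, divided promoters further. Among 4526 promoters with an observed-over-expected CpG ratio under 0.3, untreated peaks were found in 8.18% and 8.44% in WT and 16.7% and 18.2% in MT. Among 10419 promoters with a ratio of 0.6 or more, as in CpG islands, they were found in 3.05% and 3.61% in WT and 9.65% and 10.2% in MT. CpG-poor promoters were therefore more often marked in both genotypes, and the ratio of MT to WT was 2.10 in the CpG-poor and 2.98 in the CpG-rich class. GC skew, the excess of G over C in the first 500 bases of the transcript, separated promoters less. Of the 4996 promoters with the highest skew, 5.20% and 5.76% had peaks in WT and 12.03% and 13.2% in MT. Of the 4989 with the lowest, 3.93% and 4.41% had one in WT and 10.8% and 11.2% in MT. Within 50% to 60% GC the high-skew class still lay above the low-skew class in WT (4.14% and 5.42% against 2.78% and 3.399%), while in MT the classes were closer (10.3% and 11.5% against 9.86% and 10.1%). Bidirectional promoters, whose windows hold a second start site on the other strand, had peaks in 3.66% and 4.52% of 2679 windows in WT and 9.89% and 10.8% in MT, slightly below the other promoters (4.48% and 4.97% in WT, 11.6% and 12.2% in MT).

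The length of the restriction fragment that holds the start site moved with the share of promoters with a peak over all promoters. That order was not kept at matched GC content, although shares still varied with length there. On fragments under 1000 bases, untreated peaks were found in 6.27% and 6.73% of 4145 promoters in WT and in 13.7% and 15.3% in MT. On fragments of 4000 bases or more the shares were 2.93% and 3.62% of 2318 promoters in WT and 5.65% and 5.31% in MT. Within 50% to 60% GC the order turned in WT, with 3.52% and 4.69% on the short and 4.48% and 5.85% on the long fragments, and in MT the share did not follow length, with 9.82% and 11.1% under 1000 bases, 9.27% and 9.96% from 1000 to 2000, 11.8% and 12.3% from 2000 to 4000, and 8.47% and 7.35% at 4000 or more. Peak edges within 10 bases of a cut site made up 28.0% and 28.6% of edges of promoter peaks in untreated WT and 27.3% and 27.9% in untreated MT, close to the 27.2% to 29.3% elsewhere in the genome. The cutting is therefore visible in promoter peaks to the same degree as in other peaks. At 50% to 60% GC the MT-to-WT ratio was 2.54, 2.85 and 2.80 in the shorter length classes, and 1.53 at 4000 bases or more. The part of the cutting in the genotype difference was not tested.

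Coverage around the start site was then compared between the genotypes. In WT the start site itself was covered by an untreated peak in 0.641% and 0.886% of genes, against 1.72% and 1.88% at 10 kb away (mean of both sides). In MT it was covered in 2.90% and 2.77% of genes, against 3.96% and 4.54% at 10 kb. The dip was thus shallower in MT, where coverage of the start site was 73.2% and 61.0% of that at 10 kb, than in WT, where it was 37.3% and 47.3%. The difference was 24.8 percentage points (pooled SD 7.85; two-sided exact permutation test, p = 0.333). It was 25.8 (pooled SD 5.98) with untreated lists cut to 1 length and 37.7 (pooled SD 10.9) for peaks left after RNH1 subtraction, where MT reached 90.9% and 75.8% and WT 37.9% and 53.4%. In RNH1-treated DNA the genotypes were close and in the opposite order, with 46.8% and 45.6% in WT and 42.5% and 41.8% in MT. That order was not kept 400 bases downstream, where RNH1-treated MT lay 3.85 points above WT (pooled SD 4.30; p = 0.667, exact permutation test). This comparison was chosen after the profile had been seen, and the GC content of the start site and of its flanks was not matched in it. The lowest coverage lay inside the gene in each group, at 400 bases downstream of the start site in untreated WT (mean 0.576%) and at 500 bases in untreated MT (mean 2.50%).

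**Figure D3:**
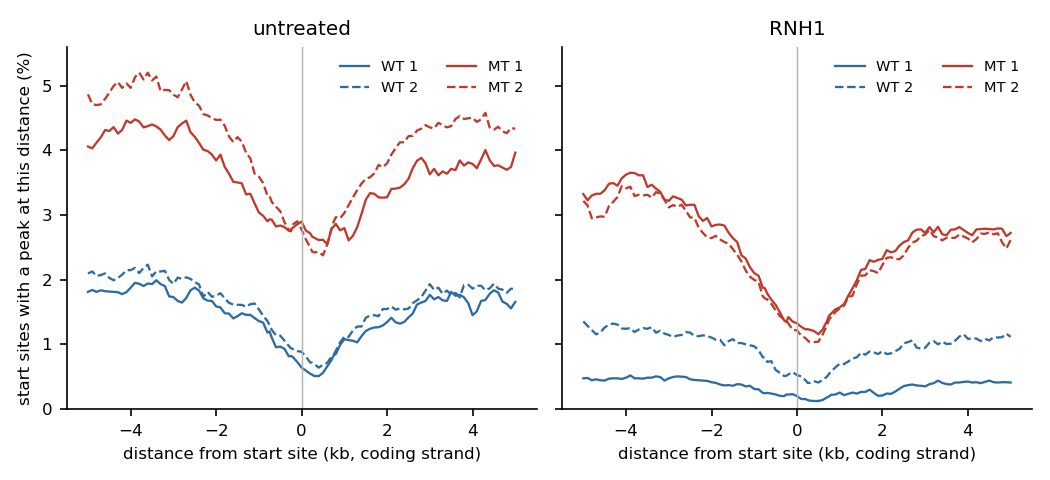
Percent of protein-coding start sites with a peak at each distance (y axis) against distance in kb on the coding strand (x axis), for untreated (left) and RNH1-treated (right) DNA. Each line is a library (WT blue, MT red, replicate 2 dashed). All lines dip just downstream of the start site, where untreated WT falls to 0.576% and untreated MT to 2.50% (means of 2 libraries).

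Summits of promoter peaks lay more often upstream than downstream of the start site. The downstream share was 40.03% of 612 and 40.97% of 681 summits in WT and 45.9% of 1749 and 44.8% of 1843 in MT, a difference of 4.84 percentage points (pooled SD 0.698; p = 0.333, exact permutation test). With lists of equal length the difference was 5.45 points (pooled SD 0.706). The bin from 200 to 400 bases downstream held the fewest summits, with 4.90% and 6.31% in WT and 8.005% and 6.62% in MT. The outermost upstream bin, from 1000 to 800 bases before the start site, held the most, with 14.9% and 15.6% in WT and 12.2% and 12.6% in MT.

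**Figure D4:**
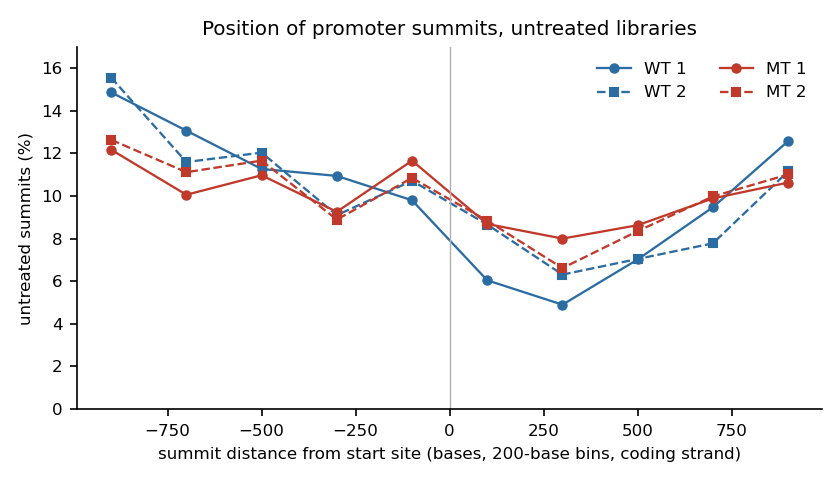
Percent of untreated promoter summits (y axis) in 200-base bins of the distance from the start site on the coding strand (x axis). Each line is an untreated library (WT blue, MT red, replicate 2 dashed). The bin centred 300 bases downstream is the lowest in each of the 4 libraries, at 4.90% to 8.005%.

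RNH1 digestion was used next to ask which promoter peaks depend on hybrid. Bona fide peaks are those left once every untreated peak touching a peak of its RNH1-treated counterpart (genotype and replicate number alike) is taken out. Bona fide peaks were left in 750 (3.76%) and 724 (3.63%) promoters in WT and in 1403 (7.03%) and 1494 (7.48%) in MT, a difference of 3.56 percentage points (pooled SD 0.237; p = 0.333, exact permutation test). With lists of equal length it was 0.511 points (pooled SD 0.198). The subtraction kept 85.6% and 73.9% of untreated promoter peaks in WT and 60.5% and 59.99% in MT. Peaks outside promoters were kept less often in each library, at 81.9% and 65.7% in WT and 49.0% and 51.1% in MT. Fewer promoter peaks survived in MT than in WT (difference −19.5 percentage points, pooled SD 5.85; p = 0.333, exact permutation test), and by −4.18 points with lists of equal length. RNH1-treated libraries themselves had peaks in 242 (1.21%) and 637 (3.19%) promoters in WT and in 1272 (6.37%) and 1245 (6.23%) in MT. The RNH1-treated WT lists held 34857 and 77391 peaks and the MT lists 201117 and 198158, so how much can be subtracted differed between the genotypes and between the WT replicates. Peaks that appeared only after digestion were common. Of the promoters with a peak in RNH1-treated DNA, 52.1% and 58.7% in WT and 29.8% and 22.5% in MT had no peak in the untreated library of the same number.

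The same promoters recurred more within a genotype than across genotypes. Of promoters with an untreated peak in a WT library, 66.6% and 59.2% had one in the other WT library and 52.2% to 57.6% in an MT library. Of those with one in an MT library, 77.7% and 73.3% had one in the other MT library and 20.9% to 22.5% in a WT library. The WT libraries marked fewer promoters, which caps the share of MT promoters that could recur there. The sharing was not computed with lists of equal length. For bona fide peaks the shares over all libraries were 49.9% to 58.3% within and 14.1% to 31.2% across genotypes, under the same cap. Counted over all 4 untreated libraries, 1197 promoters (5.99%) had a peak in both MT and in neither WT library, beside 10.7% of all genome windows. Another 181 (0.906%) had one in both WT and in neither MT library, beside 2.51% of windows, and 336 (1.68%) had one in all 4, beside 3.99%. All 3 shares were below those of the genome. Of bona fide peaks, 603 promoters (3.02%, windows 4.17%) showed the MT pattern, 139 (0.696%, windows 1.64%) the WT pattern, and 93 (0.466%, windows 0.735%) had one in all 4. Neighbouring genes can share a peak, since 4021 windows overlap another promoter window and 74 share their start site with another gene.

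Promoters marked only in MT differed in composition from those marked only in WT. Their median GC content was 50.0% against 47.8%, and their median CpG ratio 0.558 against 0.312. With lists of equal length, 466 and 281 promoters showed these patterns, with 48.7% and 48.2% GC and CpG ratios of 0.528 and 0.423. The promoters in all 4 libraries had a GC content of 47.7% and a CpG ratio of 0.360, and those without a peak in any of the 8 libraries were the most GC-rich, at 56.1%. RNH1 peaks were also more frequent at promoters marked only in MT, of which 412 (34.4%) had a peak in both RNH1-treated MT libraries and 594 (49.6%) in neither. Of the promoters marked only in WT, 18 (9.94%) had a peak in both RNH1-treated WT libraries and 141 (77.9%) in neither. Over all promoters with an untreated peak, 39.3% and 40.1% in MT and 13.3% and 26.8% in WT had one in the RNH1-treated library of the same number. The RNH1-treated MT lists were also the longer, so this contrast does not set the promoters of either pattern apart.

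The strongest bona fide promoters seen only in MT were led by a pair of zinc finger genes, and the others came from different gene families. At ZNF471 the highest fold enrichment, the summit pileup over the local background, was 9.52 and 9.50 in the MT libraries, and no peak was listed in the other 6. ZNF486, which codes for a KRAB zinc finger protein, had 9.81 and 8.03. These are genes of the chromosome 19 zinc finger clusters, many of whose products repress transposable elements. DAD1, a subunit of the oligosaccharyltransferase that N-glycosylates proteins in the endoplasmic reticulum, had 9.30 and 7.66. H3-3A, one of the genes for the replication-independent histone H3.3, had 10.1 and 6.67, with a summit 517 bases into the gene in a window of 58.5% GC and a CpG ratio of 0.946. IL1RL1, the interleukin-33 receptor, had 7.75 and 8.78 in a window of only 30.4% GC. PROX2, a homeobox gene, had 9.40 and 6.996, SLC27A2, an acyl-CoA synthetase of very long chain fatty acids, had 9.75 and 6.50, and a gene known by its identifier ENSG00000267168 had 9.75 and 7.10. A peak needed to share only 1 base with the window, so its summit could lie outside. This was so for the highest summits of DAD1 (1107 bases downstream) and SLC27A2 (at −1124).

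In WT the strongest promoters with bona fide peaks and no untreated MT peak reached similar values. RBM41, coding for a protein with an RNA recognition motif, had 10.1 and 12.03, and KLB, the co-receptor β-Klotho for endocrine FGFs, had 8.69 and 9.21. NFKBIA, which keeps NF-κB in the cytoplasm, had 6.63 and 9.44 in a GC-rich window of 63.9%. ZNF442, another zinc finger gene of chromosome 19, had 8.02 and 7.83. The others were the olfactory receptor OR10Q1 with 8.22 and 6.96, the cornified envelope gene LCE1A with 6.58 and 8.34, the sperm phospholipase PLCZ1 with 8.21 and 6.71, and ENSG00000283149 with 9.58 and 9.94. The highest summits of KLB (1077 bases downstream), PLCZ1 (1129 bases downstream) and OR10Q1 (at −1116) lay outside the window.

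**Figure D5:**
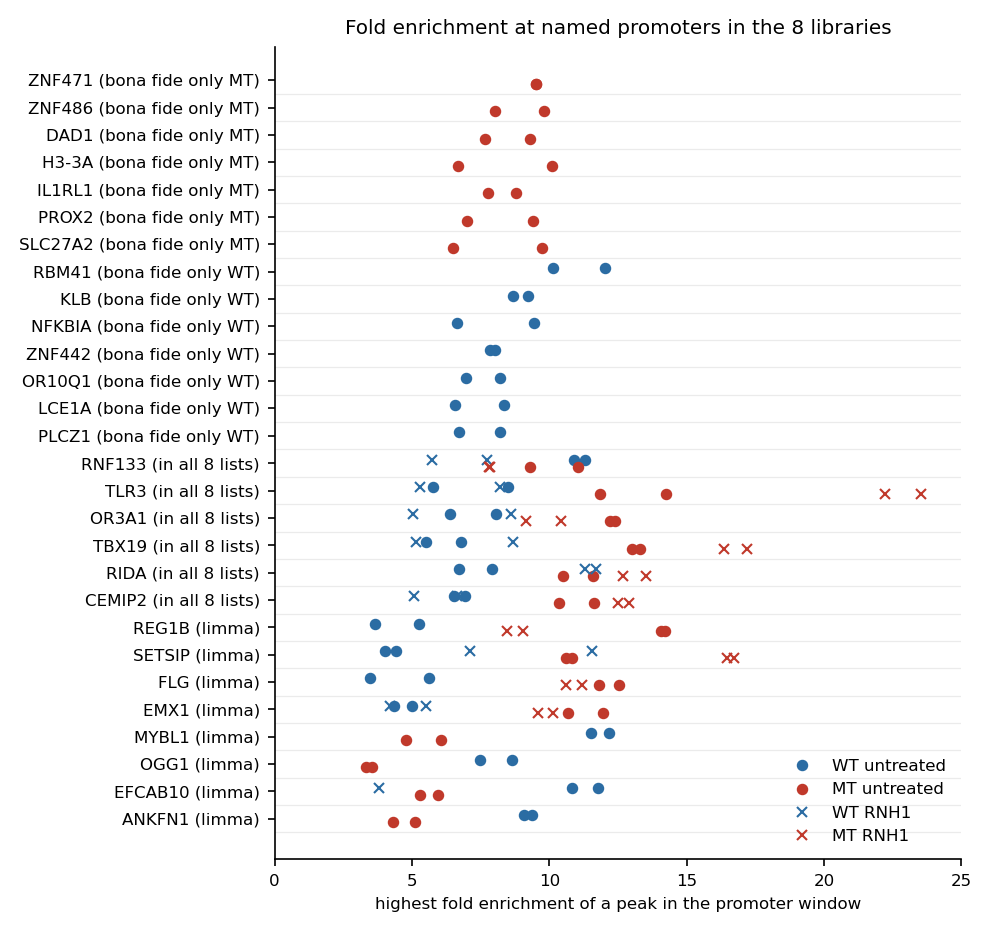
Highest fold enrichment of a peak in the promoter window (x axis) in each library, for the named promoters with a gene symbol (y axis, with the pattern that chose them). Circles are untreated and crosses RNH1-treated libraries (WT blue, MT red), and a missing point means that no peak was listed. At TLR3 the RNH1-treated MT libraries reach 22.2 and 23.5, above every untreated value.

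Promoters with bona fide peaks in all 4 libraries were led by MYBL1, the gene of the transcription factor A-MYB, with 12.2 and 11.5 in WT and 4.79 and 6.04 in MT. ARFGAP3, a GTPase-activating protein for ARF1 at the Golgi, had 6.76 and 6.84 in WT and 12.2 and 8.60 in MT, and UBE2T, the ubiquitin-conjugating enzyme of the Fanconi anemia pathway, had 8.21 and 7.90 in WT and 8.33 and 9.01 in MT. MYBL1 was the higher in WT and ARFGAP3 in MT, and the genotypes lay closest at UBE2T. ANGPT1, the ligand of the TIE2 receptor, had 5.26 and 7.03 in WT and 9.08 and 8.22 in MT. NOX4, an NADPH oxidase, had 7.09 and 9.50 in WT and 5.63 and 6.55 in MT, and LHX8, a LIM homeobox gene, had 7.08 and 8.87 in WT and 6.15 and 6.57 in MT. The highest LHX8 summit lay outside the window, at −1894.

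In 52 promoters (0.26%) a peak was listed in all 8 libraries, so that RNH1 digestion did not remove it. The share of genome windows with a peak in all 8 was not computed, so this count is not set against the genome. At TLR3, the endosomal sensor of double-stranded RNA, the peaks reached 5.76 and 8.48 in untreated WT, 5.29 and 8.19 in RNH1-treated WT, 11.8 and 14.2 in untreated MT and 22.2 and 23.5 in RNH1-treated MT. At TBX19, a T-box factor of the pituitary, it was 5.53 and 6.77, 5.15 and 8.67, 13.005 and 13.3, and 16.3 and 17.2 in the same order. These promoters were higher in MT with and without digestion. The highest TBX19 summit lay outside the window, at −1134. OR3A1 had 6.38 and 8.06 in untreated WT and 12.2 and 12.4 in untreated MT, RIDA, an imine deaminase, had 6.70 and 7.91 and 10.5 and 11.6, and CEMIP2, a hyaluronidase of the cell surface, had 6.51 and 6.93 and 10.3 and 11.6. RNF133, a testis ubiquitin ligase, was the exception among the 6 strongest, with 11.3 and 10.9 in untreated WT and 11.1 and 9.31 in untreated MT.

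Fold enrichment was compared by limma over all 42440 regions of the genome with a peak in all 4 untreated libraries. Of these, 354 lay at promoters. At promoters, 102 regions (28.8%) were higher in MT and 38 (10.7%) lower at a Benjamini-Hochberg adjusted p under 0.05, close to the background of 27.0% and 13.5% over all regions. The median log2 difference was 0.17 at promoters and 0.13 over all regions. Centring each library on its median shifted that of all regions to −0.01 and left 76 promoter regions higher and 61 lower in MT, so that 55.5% rather than 72.9% of called promoter regions were higher. Since only regions called in all 4 libraries enter, promoters with a peak in 1 genotype are not in this comparison.

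The smallest p-values of this test at promoters came from unrelated genes. REG1B, a secreted lectin of the exocrine pancreas, was higher in MT with 14.2 and 14.1 against 5.26 and 3.64 in WT, a log2 difference of 1.69 (SE 0.185, adjusted p = 8.44e-07, limma). FLG, coding for the epidermal protein filaggrin, had 12.5 and 11.8 in MT against 3.49 and 5.62 in WT (log2 difference 1.46, adjusted p = 1.02e-05, limma). SETSIP, a gene closely related to SET with which it may share reads, had 10.8 and 10.6 against 4.41 and 4.00, and EMX1, a cortical homeobox gene, had 11.9 and 10.7 against 5.01 and 4.36. The MT peaks of these 4 promoters overlapped RNH1 peaks in both MT libraries, and none was bona fide there. The WT peaks of REG1B and FLG were bona fide in both WT libraries, those of SETSIP and EMX1 in neither. Another 4 promoters had the smallest p among those lower in MT. MYBL1 fell by 1.14 on the log2 scale (SE 0.174, adjusted p = 2.98e-05, limma). OGG1, the glycosylase that removes 8-oxoguanine, had 7.48 and 8.66 in WT and 3.32 and 3.55 in MT (log2 difference −1.23, adjusted p = 4.16e-05, limma). ANKFN1 had 9.09 and 9.38 in WT and 5.10 and 4.30 in MT, and EFCAB10, an EF-hand gene, had 10.8 and 11.8 and 5.31 and 5.96. At all 4 of these promoters the MT peaks were bona fide in both libraries. Only 1 RNH1 peak was listed there, at EFCAB10 in RNH1-treated WT replicate 1 with a fold enrichment of 3.81. Over all promoters the subtraction kept 60.5% and 59.99% of untreated MT peaks. Promoters picked by the smallest p do not stand for all called regions of either direction. Among the promoters of other patterns, TBX19 was higher in MT by 1.104 on the log2 scale (adjusted p = 2.05e-05, limma) and TLR3 by 0.89 (adjusted p = 0.000421, limma), while UBE2T did not pass the test (log2 difference 0.11, adjusted p = 0.636, limma).

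Gene families differed in how often their promoters carried a peak. Olfactory receptors, tissue-restricted genes with AT-rich, CpG-poor promoters, had an untreated peak in 54 (13.01%) and 59 (14.2%) of 415 promoters in WT and in 98 (23.6%) and 112 (27.0%) in MT, against 4.37% and 4.91% and 11.4% and 12.1% of all promoters. Their median GC content was 39.2% and their median CpG ratio 0.175. Of all promoters at 35% to 40% GC, 12.4% and 12.4% had a peak in WT and 26.4% and 29.4% in MT. The olfactory receptor shares were thus close to those of promoters of like GC content. OR51Q1 reached 9.07 and 9.14 in WT against 13.6 and 14.8 in MT. OR52A1 reached 10.6 and 10.5 in WT, beside 11.1 and 11.7 in RNH1-treated WT, and had no untreated peak in MT. Keratins and keratin-associated proteins, structural proteins of epithelia and hair, had a peak in 3.36% and 4.03% of 149 promoters in WT and in 18.8% and 16.1% in MT. The median GC content of this family was 47.7%. At 45% to 50% GC, 4.75% and 6.13% of all promoters had a peak in WT and 16.4% and 17.01% in MT. Keratin shares were thus close to these in MT and below them in WT, where they rest on 5 and 6 promoters. The difference from promoters of like GC content was not tested. KRT24 had 6.65 and 6.27 in MT only, bona fide in both libraries, with the highest summit outside the window at −1132.

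Ribosomal protein and histone genes were compared with the shares of all promoters, 4.37% and 4.91% in WT and 11.4% and 12.1% in MT. Cytosolic ribosomal protein genes, transcribed at a high rate in dividing cells, had a peak in 1 and 2 of 86 promoters in WT (1.16% and 2.33%) and in 7 and 11 in MT (8.14% and 12.8%), with RPL27 at 6.195 and 4.99 in MT and bona fide in both. RPL10L, a retrocopy of RPL10 whose reads may be shared with its parent, had 6.73 and 8.34 in MT beside 6.34 and 7.03 in RNH1-treated MT. Replication-dependent histone genes, which have no introns and produce mRNA without a poly(A) tail, had a peak in 1 and 1 of 69 promoters in WT (1.45% each) and in 7 and 10 in MT (10.1% and 14.5%). Of these, 6 and 9 were bona fide in MT, beside 1403 of 2271 and 1494 of 2407 promoters over all genes. The histone counts are too small to set this family apart. In each RNH1-treated MT library 1 histone promoter had a peak. H3C6 had 4.01 in WT replicate 1 and 4.21 and 5.05 in MT, and H2AC1 had 4.08 and 4.17 in MT only. Mitochondrial ribosomal protein genes had a peak in 4 and 4 of 78 promoters in WT (5.13% each) and in 9 and 11 in MT (11.5% and 14.1%), close to all promoters, led by MRPS31 with 11.1 and 11.8 in MT and an RNH1 peak in both MT libraries.

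Developmental and clustered genes were taken next. HOX genes, the body-axis transcription factors, had a peak in 1 and 2 of 39 promoters in WT and in 1 and 2 in MT. Their median GC content was 58.6%. Of all promoters at 55% to 60% GC, 2.67% and 3.51% had a peak in WT and 8.52% and 8.74% in MT, and the HOX counts are too small to differ from these shares. HOXC12 reached 11.7 and 13.1 in MT without and 9.05 and 7.04 with RNH1, and 4.31 in untreated WT replicate 2. Its highest summit lay outside the window, at −1048. Protocadherin clusters, cell surface adhesion genes of neurons, had a peak in 9.43% and 9.43% of 53 promoters in WT and in 9.43% and 13.2% in MT. Their median GC content was 42.8%. Of all promoters at 40% to 45% GC, 10.6% and 10.1% had a peak in WT and 23.7% and 25.8% in MT. The protocadherin shares were thus close to these in WT and below them in MT. They rest on 5 and 5 promoters in WT and 5 and 7 in MT, and the difference was not tested. PCDHA6 had 5.51 and 6.66 in WT only, with the highest summit outside the window at −1534. PCDHGA2 had 11.2 and 10.2 in untreated MT and none in WT, with RNH1 peaks in both MT libraries. Zinc finger genes of chromosome 19 had a peak in 12 and 15 of 246 promoters in WT and in 28 and 32 in MT, and solute carriers in 3.49% and 4.29% of 373 promoters in WT and 11.0% and 14.2% in MT, both close to all promoters.

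Among genes of B cells, 0 of 27 promoters had an untreated peak in WT, and 3 (11.1%) and 1 (3.70%) had one in MT. With 4.64% of all promoters marked in WT and 11.7% in MT on average, counts this small do not set these genes apart. BLNK, the adaptor of pre-B and B cell receptor signaling, had 7.21 and 6.93 in MT and 5.65 in RNH1-treated MT replicate 2. MME, the surface antigen CD10, had 4.21 and IKZF3, the transcription factor Aiolos, had 3.08, each in MT replicate 1 alone. The highest summits of BLNK (1124 bases downstream) and IKZF3 (at −1133) lay outside the window. In genes of other blood lineages, 1 and 0 of 22 promoters had a peak in WT and 2 and 3 in MT, with CD33, a myeloid surface receptor, at 3.88 and 3.96 in MT and 3.65 in RNH1-treated MT replicate 2.

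Genes that process R-loops were covered at about the rate of all promoters, with 1 and 1 of 33 in WT and 4 and 4 in MT. THOC7, a subunit of the THO complex of mRNA export, had 7.70 and 5.82 in MT beside 12.6 and 12.3 in RNH1-treated MT. Of the 12 genes of the SF3A and SF3B complexes, 1 and 1 had a peak in WT and 3 and 3 in MT. Over all promoters the mean shares were 4.64% in WT and 11.7% in MT, and the counts are too small to set these complexes apart. SF3B1, the mutated gene, had a peak 875 bases downstream of its start site, at 6.50 and 9.74 in untreated MT and 9.92 and 8.38 in RNH1-treated MT, and none in WT. Its peaks were removed by the subtraction in both MT libraries. SF3B4 had 3.06 and 2.81 in WT against 5.70 and 5.73 in MT, with RNH1 peaks in both MT libraries.

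Of 13 protein-coding genes that the study followed by DRIP-qPCR or as RNA-binding proteins, 3 had an untreated peak at the promoter, all in MT and none in WT, where 4.64% of all promoters (11.7% in MT) had one on average. Counts this small do not set these genes apart. SNRPN, a core small nuclear ribonucleoprotein gene, served as a negative control in the DRIP-qPCR of the study. At the 5′ end of its gene record (chr15:24823637, in a window of 36.9% GC) it had 5.52 and 4.71, but RNH1 peaks in both MT libraries. SKIC2 (SKIV2L), the helicase of the cytoplasmic exosome, had 4.26 and 3.80 with an RNH1 peak in MT replicate 2, and ZNF90 had 3.18 in MT replicate 2. The highest SKIC2 summit lay outside the window, at −1113. No peak of any library was listed within 1000 bases of the start site of BTBD19, EGR1, ING3, NOP58, SLC9A5, DDX10, ACTB, SERBP1, STAU1 or THOC1. The lists hold only peaks past the caller's threshold, so this sets no upper limit on signal there. Each gene was examined only at the 5′ end of its record, which for ACTB is chr7:5563902. Start sites of other transcripts, and primers placed elsewhere in these genes or in SNRPN, are not addressed.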

How the data were processed

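DRIP-seq peak lists of 8 Nalm-6 libraries were used, 2 for each genotype (SF3B1-WT, K700K; MT, K700E) and treatment (untreated, RNH1). Methods state that the authors used BWA-MEM for alignment (GRCh38), discarded duplicate and mitochondrial alignments, and called narrow peaks with MACS2. A list is deposited for each library. The deposited lists give fold enrichment at the summit, a ratio over the local background, together with the −log10 p-value and q-value computed by the authors' caller. Every deposited q-value was 0.01 or lower, although Methods name a higher setting. A table of raw junction counts was not used here.

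Peaks on chromosomes 1 to 22 and X were joined to promoter windows by shared bases, and genome windows with more than 10% undetermined bases were left out. The local background was solved from fold enrichment and −log10 p. Percentages were compared over libraries by two-sided exact permutation tests. Untreated regions with a peak in all 4 libraries were compared on log2 fold enrichment by limma 3.58.1 (R 4.3.3) with a variance trend and Benjamini-Hochberg adjustment, tested on simulated data first. Fold enrichment is compressed at low background. Alternatives covered window size, peak thresholds, list length, subtraction, scaling and left-out libraries.

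Promoters were named by rule: the strongest by mean fold enrichment for each pattern (8 bona fide in 1 genotype only, 6 in all 4 or in all 8 lists), the 4 smallest limma p in each direction, the loci the study followed, and the strongest of each gene list. Examples given for a list are some of those. The promoters, lists and tests were chosen with earlier results of these data known. Some items withheld for evaluation are not reported here.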

Additional observations from a re-analysis of the deposited data

How the results depend on the processing

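The direction of each comparison of percentages and log2 ratios over libraries was kept under the alternatives run for it. None of these can pass or lose the threshold, since p = 0.333 is the smallest that the exact permutation test can give. Calls by limma did change: regions higher and lower in MT went from 11442 and 5743 to 8483 and 8691 with each library centred. With lists of equal length the MT excess in promoters with an untreated peak was 0.856 rather than 7.07 percentage points, with an RNH1 peak 0.103 (main 4.10), and with a bona fide peak 0.511 (main 3.56). Windows of 3000 bases to each side gave 17.9, 14.7 and 8.21 points and lowered the downstream summit excess to 1.83, and windows of 500 bases raised the excess of the promoter-to-window ratio from 0.28 to 0.50. A fold enrichment of at least 4 gave 4.08, 3.14 and 1.75 points and a downstream summit excess of 7.41. Promoters with a peak only in MT numbered 738 with windows of 500 bases, 3059 with 3000 bases, 734 with a fold enrichment of at least 4, 466 with lists of equal length and 603 when bona fide (1295 to 1743 with 1 library left out). Those only in WT numbered 94 with 500 bases, 399 with 3000 bases and 281 with lists of equal length, and 204 to 400 with 1 library left out (400 without WT replicate 1, 327 without WT replicate 2). Called regions ranged from 13502 (without WT replicate 2) to 18429 (replicate block), against 17185. The excess in start site coverage ranged from 18.8 to 30.9 points with 1 library left out. The alternatives to start site coverage, and equal list length joined to GC matching, were chosen after seeing the data.

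Same-numbered libraries did not deviate together (correlation −0.00189), and the numbers are not stated to mark a shared batch. With the replicate number as a block, the differences in the untreated and bona fide share were 7.07 and 3.56 points, which a balanced block cannot change, and 18429 regions were called. The lists hold no reads, so depth could not be equalized, and absent peaks carry no upper limit.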

Other observations

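Chromosomes differed in how many promoters carried an untreated peak. On chromosome X, 0.582% and 0.815% of 859 promoters had one in WT and 3.14% and 3.84% in MT, the lowest shares of any chromosome in WT and in MT. On chromosome 19, the most gene-dense, the shares were 1.83% and 3.66% of 1476 in WT and 6.30% and 5.83% in MT. Chromosome 12 was the highest in WT by the mean, with 5.49% and 7.61% of 1038 promoters. Chromosome 13 was the highest in MT, with 17.6% and 18.3% of 323 promoters against 5.57% and 3.41% in WT. Over all windows of the genome, chromosome X was also the lowest, with means of 3.75% in WT and 9.67% in MT. The copy number of each chromosome in these lines is not given in the sources used here, and its part in these shares was not tested.

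Promoter peaks were broader in MT, in untreated and in RNH1-treated DNA. The median width of untreated peaks at promoters was 439 and 436 bases in WT and 497 and 485 in MT, while elsewhere in the genome WT had 439 and 448 and MT 439 and 441. Fold enrichment at promoters had medians of 4.23 and 4.12 (WT) and 4.21 and 4.16 (MT). No statistic was computed for the difference in width.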
